A study of Mus musculus with 54 samples.

Results

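Sperm carry their own versions of several enzymes of glycolysis and pyruvate metabolism, and 7 of these genes are described here: Aldoart1, Aldoart2, Gapdhs, Pgk2, Eno4, Ldhc and Pdha2. They were chosen by symbol, and 7 of 7 were found among the 26264 genes of the testis table and of the ovary table. Gonads of mice were sequenced as poly(A) RNA in 54 libraries, in 18 groups of 3 named A, B and C. In the F1 generation, pregnant females and their progeny drank water with 0.001% ethanol (control) or with a mixture of IBU, 2hIBU, DCF and EE2, from 8.5 days post coitum to sacrifice of males at 35 days and females at 30 days after birth. Dose 1 held 11.3 ng/L IBU, 90 ng/L 2hIBU, 22.5 ng/L DCF and 2.25 ng/L EE2. Dose 2 held 113, 225, 112 and 45 ng/L of the same compounds. The F2 groups are crosses of F1 mice: a control cross, a maternal dose 1 or maternal dose 2 cross (control father, mother from that dose group), a paternal dose 1 or paternal dose 2 cross (father from that dose group, control mother) and a biparental dose 2 cross. The labels list no treatment of their own for the F2 animals, give no strain, and do not say whether the 3 libraries of a group come from separate animals or litters, so p-values measure only the spread between these libraries. No age is given here for the F2 animals.

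Glycolysis splits glucose into pyruvate, which is then reduced to lactate or enters the mitochondrion through the pyruvate dehydrogenase complex. Most cells run these steps with the widely expressed isozymes Aldoa, Gapdh, Pgk1, Eno1, Ldha and Pdha1. Male germ cells from meiosis onward switch on isozymes of their own, many of them intronless copies (retrogenes), and mature sperm depend on several of them for motility. Pgk1 and Pdha1 lie on the X chromosome, which is silenced in spermatocytes, while Pgk2 and Pdha2 are autosomal copies. Aldoart1 and Aldoart2 encode sperm aldolases, which cleave fructose bisphosphate. Gapdhs encodes the sperm glyceraldehyde phosphate dehydrogenase bound to the fibrous sheath of the tail, Pgk2 the phosphoglycerate kinase that makes ATP in the next step, and Eno4 an enolase-like protein of the sperm tail. Ldhc encodes the lactate dehydrogenase of spermatocytes, spermatids and sperm. Pdha2 encodes the catalytic subunit through which pyruvate enters mitochondrial oxidation.

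Promoter sequence is shown for 4 of the genes, because Ldhc, Pgk2 and Pdha2 were the members with promoter motifs among those searched, and Eno4 was the member that stood apart in the measurements below. RefSeq promoters of the build GRCm38.p6 were available for 6 of the 7 members, and the counts themselves were made on mm39. Each line holds the 250 bases before the annotated start, read 5′ to 3′ on the gene's strand. Capitals mark TGACGT (the core of a cAMP response element), GGGCGG (a GC box), CCAAT or TATAAA, searched on both strands; TGACGTCA, which contains TGACGT, was searched too. The windows are chr7:46861013-46861262 on the plus strand for Ldhc (the first of 2 annotated starts), chr17:40208610-40208859 on the minus strand for Pgk2, chr3:141212356-141212605 on the minus strand for Pdha2 and chr19:58943175-58943424 on the plus strand for Eno4.
Ldhc: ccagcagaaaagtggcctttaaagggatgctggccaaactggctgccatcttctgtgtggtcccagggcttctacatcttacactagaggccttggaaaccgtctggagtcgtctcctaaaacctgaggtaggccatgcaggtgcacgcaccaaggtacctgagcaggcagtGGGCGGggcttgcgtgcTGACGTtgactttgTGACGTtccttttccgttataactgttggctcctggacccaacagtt
Pgk2: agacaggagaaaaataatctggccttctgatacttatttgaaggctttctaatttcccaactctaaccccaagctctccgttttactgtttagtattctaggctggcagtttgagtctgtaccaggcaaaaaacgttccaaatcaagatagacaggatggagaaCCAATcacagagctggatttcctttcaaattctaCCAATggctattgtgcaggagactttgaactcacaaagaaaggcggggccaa
Pdha2: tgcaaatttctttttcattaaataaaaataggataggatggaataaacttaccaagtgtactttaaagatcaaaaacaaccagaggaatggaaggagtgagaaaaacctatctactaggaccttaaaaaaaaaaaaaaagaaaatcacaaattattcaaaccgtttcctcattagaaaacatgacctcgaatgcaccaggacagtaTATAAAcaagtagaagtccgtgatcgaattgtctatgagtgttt
Eno4: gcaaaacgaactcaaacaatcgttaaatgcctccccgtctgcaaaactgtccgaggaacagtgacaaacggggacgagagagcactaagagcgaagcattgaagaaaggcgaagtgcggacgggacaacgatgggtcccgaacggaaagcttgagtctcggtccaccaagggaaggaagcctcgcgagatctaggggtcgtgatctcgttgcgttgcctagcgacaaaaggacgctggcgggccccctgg

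In the Ldhc window TGACGT occurred 2 times, 61 and 47 bases before the start, with a GGGCGG 78 bases before it. Its body-cell relative Ldha also held 2 TGACGT (12 and 10 bases before its first start, overlapping in 1 TGACGTCA) and 2 GGGCGG, so these motifs are shared by the pair. Pgk2 held CCAAT 86 and 52 bases before its start, and Pdha2 a TATAAA 44 bases before. None of the motifs was found in the windows of Eno4, Aldoart2 or Gapdhs. Of 32851 promoters of the same length, 6.47% held TGACGT, 1.55% TGACGTCA, 32.7% GGGCGG, 33.8% CCAAT and 12.4% TATAAA, so that GGGCGG and CCAAT are common by themselves. CpG dinucleotides numbered 22 in the Eno4 window, 8 in Ldhc, 7 in Aldoart2, 4 in Pdha2, 3 in Pgk2 and 1 in Gapdhs (first start), against a median of 6 over all promoters. The body-cell genes Pgk1, with 17, and Pdha1, with 15, held more than their germ cell copies. These matches describe letters in a window and say nothing of factors bound there.

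Reads of the 7 genes can be told from those of their relatives at the length sequenced. The longest coding transcript of each member (GENCODE annotation of GRCm38) was 72.2% identical to its relative over the aligned stretch for Gapdhs and Gapdh, 79.1% for Pgk2 and Pgk1, 74.1% for Ldhc and Ldha and 76.4% for Pdha2 and Pdha1. The aldolase retrogenes are closer: 93.1% for Aldoart1 and Aldoa, 90.6% for Aldoart2 and Aldoa and 87.7% between Aldoart1 and Aldoart2. Of all stretches of 100 nt in the members' transcripts, 0 occurred unchanged in a transcript of another gene. Reads with mismatches were not examined, so the 2 aldolase genes are the least certain of the 7.

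Total counts per library, in M (mega), were 31.8 to 122.4 in F1 testis, 31.6 to 48.2 in F2 testis, 36.6 to 57.4 in F1 ovary and 37.9 to 84.7 in F2 ovary. Levels are CPM, counts per mega-count of library total, with the total scaled by the trimmed mean of M-values (TMM) within a tissue and generation. 3 libraries stood apart. The F1 ovary control A library held spermatid transcripts far above the other ovary libraries. In F1 testis, the summed level of 12 elongating spermatid markers, at 14507 to 29928 CPM in the 7 other libraries, was 12857 in dose 2 B and 34970 in dose 2 C. These sums are after TMM scaling, and the F1 testis factors ran from 0.843 (dose 2 C) to 1.11 (dose 2 B). Marker sums without that scaling were not made. Several results that rest on these libraries are given with and without them. The F1 coefficients of variation, ranges of count ratios, r of the most alike genes and r of pairs with Eno4 include all libraries. These libraries were picked with earlier results of these data known.

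All 7 genes were expressed in every testis library. Per kilobase of transcript, the F2 control cross held 1852 ± 41.8 CPM of Ldhc, 1015 ± 57.7 of Gapdhs, 451 ± 5.97 of Pgk2, 204 ± 8.41 of Aldoart2, 69.5 ± 0.267 of Pdha2, 58.4 ± 4.05 of Aldoart1 and 25.0 ± 3.33 of Eno4 (SD, n = 3). Ranges of neighbours in this order did not overlap. Pdha2 varied least, from 160.9 to 173.3 CPM over the 18 F2 testis libraries, with a coefficient of variation of 2.42%. Eno4 varied most, from 50.8 to 91.4 CPM and 15.1%, and the other 5 lay between 5.07% and 8.02%. In the 9 F1 testis libraries the same coefficients were 5.36% for Pdha2 and 30.9% for Eno4. In bulk tissue, fewer cells of a type and less RNA per cell cannot be told apart.

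**Figure D1:**
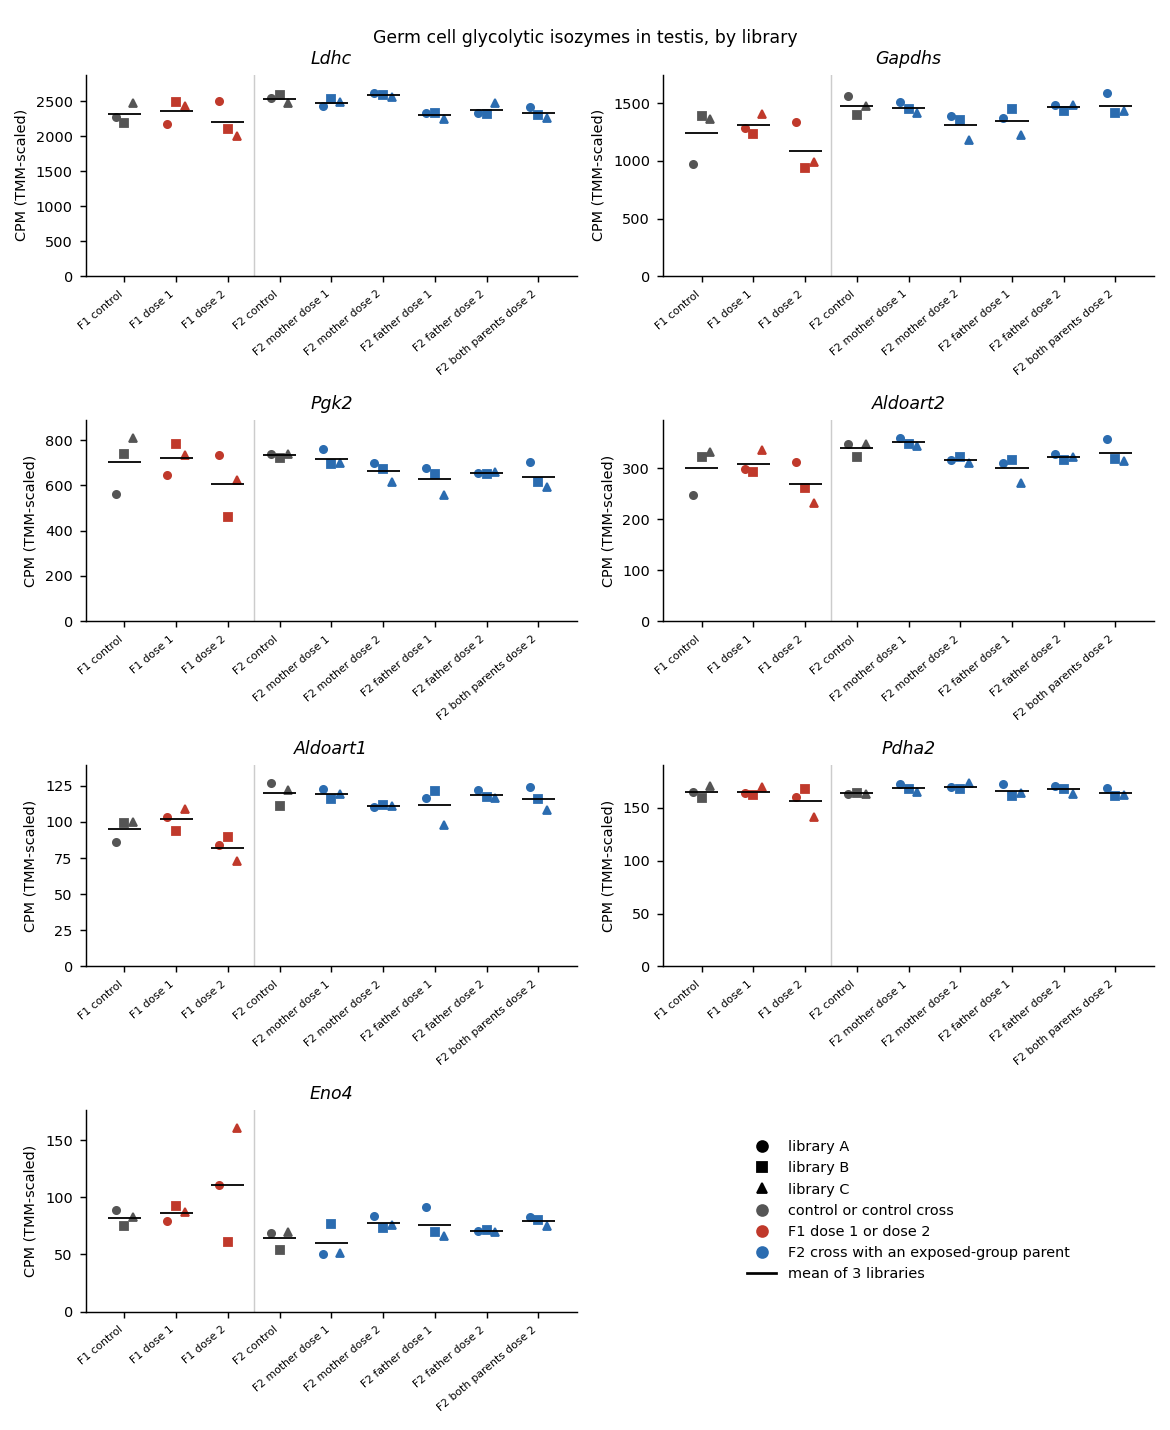
TMM-scaled CPM of each germ cell isozyme in the 27 testis libraries (vertical axes from 0), with 9 groups of 3 along the horizontal axes; points are libraries A, B and C, and bars are group means. Pdha2 is nearly level, with 160.9 to 173.3 CPM over the F2 libraries, while Eno4 spans 60.5 to 160.5 CPM within F1 dose 2.

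The germ cell isozyme exceeded its body-cell counterpart for 4 of the 7 pairs in every testis library. For the X-linked genes the excess was largest: counts of Pgk2 were 25.7 to 44.3 times those of Pgk1, and counts of Pdha2 were 14.5 to 25.1 times those of Pdha1, over 27 libraries. Gapdhs counts were 3.98 to 14.0 times those of Gapdh, and Ldhc counts 1.39 to 3.005 times those of Ldha. Per kilobase, in the F2 control cross, Pgk1 was at 9.77 ± 0.802 CPM and Pdha1 at 3.06 ± 0.123, while Gapdh was at 80.2 ± 3.38 and Ldha at 475 ± 26.7 (SD, n = 3).

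Taken gene by gene, the germ cell aldolases and Eno4 did not follow this order. Aldoart1 and Aldoart2 were each set against Aldoa singly, and their sum was not. Aldoart2 counts were 0.645 to 1.00 times, and Aldoart1 counts 0.202 to 0.362 times, those of Aldoa. Eno4 counts were 0.192 to 0.370 times those of Eno1. Aldoa stood at 231 ± 5.47 CPM per kilobase in the F2 control cross and Eno1 at 126 ± 3.42, so both genes remain abundant in testis RNA. Which cells of the testis hold these transcripts was not tested. These ratios are of counts, not divided by length, and do not depend on library scaling. The ratio of Ldhc to Ldha was 1.39 to 2.59 in the 9 F1 libraries and 2.70 to 3.005 in the 18 F2 libraries, with no overlap between the generations. These were not compared by a test, and no age is given here for the F2 males. Ldha, which makes lactate from pyruvate in most tissues, was at 810.0 to 1446 CPM in F1 and 795 to 947 in F2 testis.

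**Figure D2:**
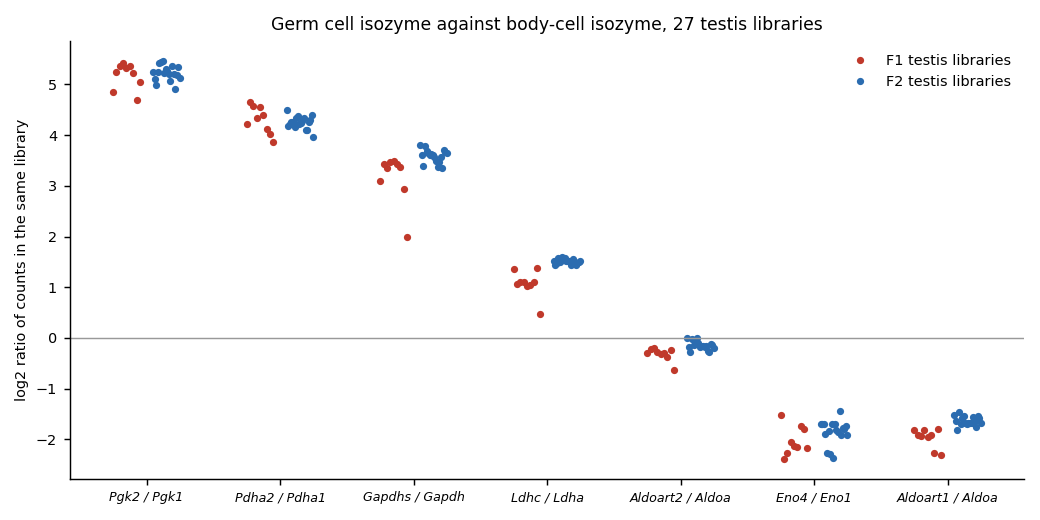
Log2 ratio of each germ cell isozyme to its body-cell counterpart within a library (vertical axis), for 9 F1 and 18 F2 testis libraries; each point is a library and the line marks equal counts. Pgk2, Pdha2, Gapdhs and Ldhc lie above the line in all 27 libraries, and the lowest Gapdhs ratio, 3.98, belongs to F1 dose 2 C.

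In F1 testis none of the 7 genes passed the threshold at either dose. At dose 1, Pgk2 was at 647, 784 and 734 CPM in A, B and C, against 561, 737 and 810 in the controls. At dose 2 it was at 734, 460 and 624 CPM. Control A and dose 2 B were the lowest 2 libraries of Pgk2, and the groups overlapped. By library totals without TMM scaling the lowest 2 were dose 2 B and dose 2 C, at 512 and 526 CPM. Gapdhs was at 1288, 1235 and 1411 CPM at dose 1, 1334, 941 and 992 at dose 2 and 970, 1386 and 1361 in controls. Here again control A lay with the lower dose 2 libraries. Ldhc was at 2171, 2494 and 2432 CPM at dose 1, at 2505, 2097 and 2003 at dose 2 and at 2278, 2189 and 2476 in controls.

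Aldoart2 was at 299, 293 and 336 CPM at dose 1, at 312, 262 and 233 at dose 2 and at 247, 322 and 332 in controls. Aldoart1 was at 103.5, 93.9 and 109.1 CPM at dose 1, at 83.9, 89.5 and 72.9 at dose 2 and at 86.3, 99.1 and 100.01 in controls. The 3 dose 2 libraries of Aldoart1 lay below the 3 dose 1 libraries and overlapped the controls. Pdha2 was at 163.9, 161.7 and 169.4 CPM at dose 1, at 159.8, 168.2 and 141.6 at dose 2 and at 165.4, 159.6 and 170.5 in controls. Eno4 was at 79.5, 92.2 and 87.1 CPM at dose 1, at 111, 60.5 and 160.5 at dose 2 and at 89.3, 74.7 and 82.9 in controls. Dose 2 holds both the lowest (B) and the highest (C) F1 library of Eno4.

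With dose 1 the members' log2 fold changes against the control ran from -0.0018 (Pdha2) to 0.10 (Aldoart1), with 0 of 7 called by edgeR's quasi-likelihood test and 0 by DESeq2, and 0 at an unadjusted p under 0.05 by either. Of all genes tested, 0.021% were called and 3.18% had an unadjusted p under 0.05. No member separated the groups in either direction, where 6.19% of all genes were wholly higher at dose 1 and 6.22% wholly lower. With dose 2, 6 of 7 were lower than the control, with a median of -0.16, and Eno4 was higher by 0.43 (SE 0.29). Without dose 2 B and dose 2 C, dose 2 is a single library. In that fit 2 of 7 were lower (Pdha2 at -0.051 and Aldoart1 at -0.18), and the median was 0.060. Gapdhs was then at 0.104, Pgk2 at 0.060, Ldhc at 0.110 and Aldoart2 at 0.050. With all libraries, edgeR and DESeq2 again called 0 of 7, with 0 at an unadjusted p under 0.05 by either. Over all genes, edgeR called 0.00526% and gave 1.93% an unadjusted p under 0.05. The median of all genes was 0.013. No member separated dose 2 from the control, where 1.79% of all genes were wholly higher and 2.32% wholly lower. The lowest adjusted p among members was 0.982 at dose 2 and 0.998 at dose 1 by edgeR.

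Between the doses, Aldoart1 was lower at dose 2 by 0.32 on the log2 scale (log2 fold change -0.32, SE 0.13, unadjusted p = 0.0427 and adjusted p = 0.999983 by edgeR). It was the member of the 7 whose dose 2 and dose 1 libraries did not overlap, where 4.16% of all genes had dose 2 wholly below dose 1, 3.57% wholly above it, 3.31% an unadjusted p under 0.05 and 0.0263% an adjusted one. DESeq2 called 0 members in this comparison, with 1 at an unadjusted p under 0.05. Without dose 2 B and dose 2 C, dose 2 is a single library assumed to vary like the other groups: Gapdhs, Pgk2 and Ldhc were then higher than dose 1 by 0.013, 0.011 and 0.070, each the opposite sign of the fit with all libraries (-0.27, -0.25 and -0.10). Aldoart1 kept its direction, at -0.30. The difference of Eno4 between doses, 0.36 with all libraries, was -0.0048 without dose 2 C.

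Libraries dose 2 B and dose 2 C were low in different members. After TMM scaling, dose 2 B was the lowest F1 testis library for Gapdhs, Pgk2 and Eno4, and dose 2 C the lowest for Ldhc, Pdha2, Aldoart1 and Aldoart2. By library totals without that scaling, Gapdhs was lowest in dose 2 C (836 CPM, against 1047 in dose 2 B). Pgk2 was then at 512 CPM in dose 2 B and 526 in dose 2 C. Dose 2 C had the highest Gapdh (249 CPM), Ldha (1446 CPM) and Eno1 (719 CPM) of the 9 libraries, so that its Gapdhs to Gapdh ratio was 3.98, where the other 8 held 7.69 to 11.3. After TMM scaling, its summed markers were the highest of the 9 for elongating spermatids (34970 CPM) and round spermatids (3320). They were the lowest for pachytene spermatocytes (3129) and Sertoli cells (675). Dose 2 B had the lowest elongating spermatid sum (12857 CPM) and the highest pachytene sum (4278). The part of these markers in the members' levels was not tested.

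Among the F2 crosses, Pgk2 had its highest group mean in the control cross, at 740.5, 723 and 738 CPM in A, B and C. The paternal dose 1 cross held 677, 651 and 560, the paternal dose 2 cross 656, 650 and 658, the biparental dose 2 cross 704, 614 and 593 and the maternal dose 2 cross 701, 672 and 617. All 12 of these libraries lay below the 3 of the control cross. The maternal dose 1 cross, at 762, 694 and 698 CPM, overlapped it. Log2 fold changes of Pgk2 against the control cross were -0.22 (SE 0.072, unadjusted p = 0.0061, adjusted p = 0.201 by edgeR) in the paternal dose 1 cross, -0.20 (adjusted p = 0.585 by edgeR) in the biparental cross, -0.17 (adjusted p = 0.977 by edgeR) in the paternal dose 2 cross and -0.15 (adjusted p = 0.331 by edgeR) in the maternal dose 2 cross. None passed the threshold. The 5 comparisons share the 3 control cross libraries, whose Pgk2 values lay close together.

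Ldhc was at 2540, 2592 and 2478 CPM in the control cross. It was lower without overlap in 3 crosses: paternal dose 1 (2333, 2334 and 2242), paternal dose 2 (2338, 2311 and 2474) and biparental (2421, 2298 and 2254). The maternal dose 2 cross, at 2619, 2587 and 2566, and the maternal dose 1 cross, at 2425, 2528 and 2482, overlapped the control cross. Log2 fold changes were -0.14 (SE 0.042, adjusted p = 0.171 by edgeR), -0.10 (adjusted p = 0.980 by edgeR) and -0.13 (adjusted p = 0.537 by edgeR) in the first 3. In the maternal and paternal crosses compared directly, Ldhc was higher in the maternal one, by 0.11 at dose 1 (adjusted p = 0.355 by edgeR) and by 0.13 at dose 2 (SE 0.042, adjusted p = 0.170 by edgeR), without overlap at either dose. These direct comparisons do not use the control cross.

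Gapdhs, the tail-bound dehydrogenase, was at 1563, 1395 and 1478 CPM in the control cross and 1386, 1356 and 1186 in the maternal dose 2 cross, which lay wholly below it (log2 fold change -0.18, SE 0.069, unadjusted p = 0.0198, adjusted p = 0.235 by edgeR). It was at 1373, 1448 and 1225 CPM in the paternal dose 1 cross, which overlapped the control cross. In the maternal dose 1 cross (1511, 1453 and 1414), the paternal dose 2 cross (1485, 1434 and 1486) and the biparental cross (1591, 1420.4 and 1429.8) its differences were -0.019, -0.011 and 0.0013.

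Aldoart2 was at 347, 323 and 347 CPM in the control cross and 311, 316 and 272 in the paternal dose 1 cross (log2 fold change -0.18, SE 0.059, adjusted p = 0.216 by edgeR), without overlap. It was also wholly below the control cross in the maternal dose 2 cross, at 317, 321 and 311 CPM (-0.100, SE 0.059, adjusted p = 0.424 by edgeR). The maternal dose 1 cross held 359, 348 and 344 CPM, wholly above the paternal dose 1 cross, with a difference of 0.23 (SE 0.059, unadjusted p = 0.0012, adjusted p = 0.164 by edgeR). DESeq2 gave that difference an adjusted p of 0.0347, the only call of a member by any tool or setting run, in a comparison where DESeq2 called 1.1% of the genes it tested. Over the 12 alternatives its adjusted p ran up to 1. Aldoart1, at 127, 111 and 122 CPM in the control cross, was at 110.3, 111.6 and 110.96 in the maternal dose 2 cross and between 97.6 and 124 in the other 4 crosses, each overlapping the control cross.

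Pdha2 stayed within 163.1 to 164.3 CPM in the control cross and 160.9 to 173.3 in the other 5 crosses. The maternal dose 1 cross (172.9, 168.0 and 165.3) and the maternal dose 2 cross (169.5, 167.6 and 173.3) lay wholly above the control cross, by 0.045 (SE 0.042) and 0.057 (SE 0.042) on the log2 scale. These differences are near the size of their SE, and the separation rests on 3 control values that differ by little more than 1 CPM.

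Eno4 had a higher mean than the control cross in 4 of the 5 other crosses, all but the maternal dose 1 cross, and separated from it in 2. It was at 68.5, 54.3 and 69.7 CPM in the control cross and higher without overlap in the biparental cross, at 82.8, 79.8 and 74.7 (log2 fold change 0.30, SE 0.14, unadjusted p = 0.0444, adjusted p = 0.698 by edgeR). It also lay above the control cross in the maternal dose 2 cross, at 83.4, 73.3 and 76.2 (0.27, SE 0.14, adjusted p = 0.347 by edgeR). In the paternal dose 1 cross (91.4, 69.8 and 66.4), the paternal dose 2 cross (70.3, 71.6 and 69.4) and the maternal dose 1 cross (50.8, 77.0 and 51.7) the groups overlapped.

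By count, edgeR called 0 of 7 members in each of the 7 F2 testis comparisons, where it called 0.0103% of all genes in the maternal dose 1 cross, 0.372% in the maternal dose 2 cross, 0.201% in the paternal dose 1 cross, 0.00516% in the paternal dose 2 cross and 0.0155% in the biparental cross, each against the control cross. Members at an unadjusted p under 0.05 numbered 0, 1, 3, 2 and 3 in that order, by edgeR and by DESeq2 alike, and DESeq2 called 0 of them. The shares of all genes at that unadjusted p were 6.54%, 15.7%, 12.5%, 5.02% and 7.02%. Members wholly below the control cross numbered 0, 3, 3, 2 and 2, where 6.13%, 10.6%, 9.04%, 5.53% and 6.61% of all genes were. Members wholly above it numbered 1, 2, 0, 0 and 1, where 5.71%, 10.9%, 8.65%, 5.17% and 5.96% of all genes were.

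In the maternal against the paternal dose 1 cross, 4 of 7 had an unadjusted p under 0.05 by edgeR (11.5% of all genes, with 0.0413% called after adjustment). Of these, 3 were higher in the maternal cross and 1, Eno4, was lower. The 3 wholly higher members were Pgk2, Ldhc and Aldoart2, where 7.93% of all genes were. At dose 2, 2 of 7 had such a p (16% of all genes, with 0.119% called), 1 higher and 1 lower. The 2 wholly higher were Ldhc and Eno4 (11.2% of all genes), and the 2 wholly lower were Gapdhs and Aldoart1 (9.73%). DESeq2 called 0 members there, with 2 at an unadjusted p under 0.05. The members' median log2 fold change against the control cross was -0.019, -0.10, -0.13, -0.016 and -0.042 in the order above, beside medians of all genes between -0.0056 and 0.0045.

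**Figure D3:**
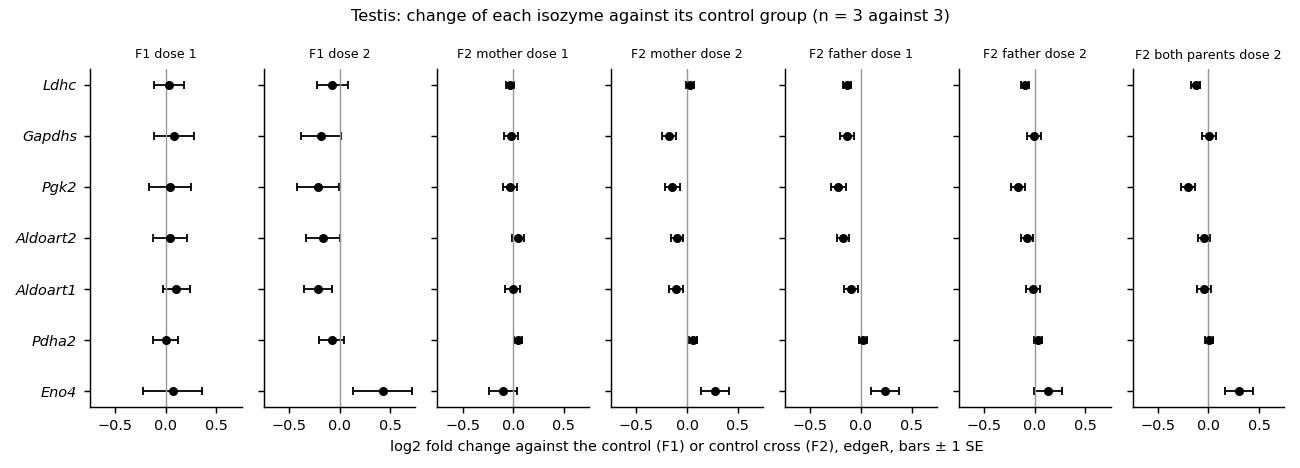
Log2 fold change of each isozyme against the control (F1) or the control cross (F2), 3 libraries against 3, with bars of 1 SE from edgeR. F2 bars are shorter than F1 bars, Pgk2 lies left of 0 in the 5 F2 crosses (-0.03 to -0.22), and Eno4 lies right of 0 in 4 of them; no value passed the adjusted threshold.

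The levels of cell type markers in the same crosses stood as follows. In the paternal dose 1 cross, 10 of 12 elongating spermatid markers and 9 of 10 round spermatid markers were lower than in the control cross, with medians of -0.13 and -0.14, while 6 of 8 spermatogonial markers and 7 of 9 Sertoli markers were higher, with medians of 0.19 and 0.12. Summed elongating spermatid markers were 16732 to 19227 CPM there and 18574 to 19963 in the control cross, and summed spermatogonial markers 110.5 to 127 and 100.1 to 106.6. Kit, the receptor of differentiating spermatogonia, was higher by 0.45 (SE 0.074, adjusted p = 0.0165 by edgeR) and was the only marker that edgeR called in the 10 testis comparisons of these lists. DESeq2 called 1 spermatogonial, 1 round spermatid and 1 Sertoli marker in that cross, and 1 elongating spermatid marker in the maternal dose 2 cross. In each of those crosses it also called 1 gene of a list of ovarian granulosa cell markers, which shares genes with the Sertoli list. Between maternal and paternal crosses it called 1 spermatogonial and 2 round spermatid markers at dose 1. At dose 2 it called 1 elongating spermatid marker there. In the maternal dose 2 cross 9 of 12 elongating and 9 of 10 round spermatid markers were lower, with medians of -0.091 and -0.067. In the paternal dose 2 cross 10 of 12 elongating spermatid markers were lower (median -0.11) and 6 of 10 round spermatid markers higher (median 0.0081). In the biparental cross 7 of 12 elongating spermatid markers were higher (median 0.022), 6 of 10 round spermatid markers lower (median -0.037) and 6 of 8 spermatogonial markers higher (median 0.15). Pgk2 and Ldhc were lower without overlap in both of these crosses. Pachytene spermatocyte markers had medians of 0.021, 0.039, 0.0069 and 0.0049 in the order in which the crosses are given here. Leydig cell markers had medians of 0.098, -0.067, 0.083 and 0.34 in that order. Spermatogonial markers had 0.19, 0.11, 0.059 and 0.15, and Sertoli markers 0.12, 0.063, 0.0048 and 0.090. In the maternal dose 1 cross the medians were -0.014 for elongating spermatid, 0.019 for round spermatid and -0.016 for pachytene markers. Spermatogonial markers had -0.040 there, Sertoli markers -0.030 and Leydig cell markers 0.26. The part of these markers in the members' levels was not tested.

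No other gene of the pathway passed edgeR's threshold in testis. The list of other glycolytic enzymes, such as hexokinases and phosphofructokinases, had 18 of 21 genes tested, the pyruvate dehydrogenase complex and its regulators 10 of 10, sugar and lactate carriers 8 of 8 and the body-cell isozymes 8 of 8. In 3 F1 and 7 F2 testis comparisons edgeR called 0 of them, with 0 to 3 glycolytic enzymes, 0 to 2 genes of the dehydrogenase list, 0 to 5 carriers and 0 to 3 body-cell isozymes at an unadjusted p under 0.05 in a comparison. DESeq2 called 1 glycolytic enzyme and 1 carrier in the maternal dose 2 cross against the control cross, and 2 carriers in the maternal against the paternal dose 2 cross. Median log2 fold changes of the 4 lists ran from -0.035 to 0.12 in F2 testis. In F1 testis the body-cell isozymes had a median of 0.24 at dose 2 against the control, with 7 of 8 higher, where the members' median was -0.16. Without dose 2 B and dose 2 C, dose 2 is a single library, whose genes share its composition and scaling. The body-cell isozymes then had a median of 0.15, with 8 of 8 higher, and the members a median of 0.060.

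Over the 18 F2 testis libraries, members other than Eno4 varied together to differing degrees: over their 15 pairs Pearson's r of log2 CPM ran from -0.17 to 0.83, with a median of 0.42. In the 9 F1 libraries the median was 0.67, and 0.31 without dose 2 B and dose 2 C. The 6 pairs with Eno4 had medians of -0.11 in F2 and -0.24 in F1, but 0.28 in F2 (0.26 to 0.36) once group means were subtracted, so the sign of the F2 median turns with that choice. These libraries share tissue, depth and composition, so r is a description. The genes most like each member in F2, of 12492 ranked, are given with their r over all 9 F1 libraries, dose 2 B and dose 2 C among them. For Gapdhs they were 1700031M16Rik (r = 0.95, F1 0.76), 1700001C19Rik (0.94, F1 0.26) and Spata3 (0.93, F1 0.96). Pgk2 was most like Fhl4 (0.93, F1 0.49), Asnsd1 (0.92, F1 0.84) and Gm11213 (0.92, F1 0.72). For Ldhc, Ppp3r2 led with 0.92 but -0.019 in F1, followed by Pebp4 (0.90, F1 0.87) and Ptdss2 (0.88, F1 0.55).

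Aldoart1 was most like Mroh7 (r = 0.94, F1 0.72), Gsg1 (0.93, F1 0.30) and Wbscr25 (0.91, F1 0.83). Aldoart2 shared Gsg1 (0.94, F1 0.66) and was followed by Odf1 (0.92, F1 0.85), an outer dense fibre gene of the sperm tail, and Vwa3b (0.92, F1 0.85). The nearest genes to Eno4 were Hspa12a (0.81, F1 0.91), Oxnad1 (0.78, F1 0.95) and 1700095J03Rik (0.77, F1 0.35). Pdha2, the least variable member, had the weakest likenesses, with Pacrgl (0.78), Limk2 (0.70) and Atpaf1 (0.70), and each had a negative r in F1 (-0.83, -0.49 and -0.88).

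In F2 ovary 5 of the 7 genes were at or near the limit of counting, and in F1 ovary all 7 had at least 3 counts in every library, with 1 library far above the rest. Testis and ovary came in separate tables and from animals of different sex and, in F1, age, so their levels are set side by side without a test. In the 18 F2 ovary libraries Aldoart1 had 0 to 1 counts, with 17 libraries at 0. Pgk2 had 0 to 5 counts (12 libraries at 0), Gapdhs 0 to 8 (7 at 0), Pdha2 0 to 7 (1 at 0) and Aldoart2 0 to 8 (2 at 0). A count of 0 allows up to 3 counts, so these 5 genes were not detectable in some F2 ovary libraries at this depth. Ldhc, with at least 36 counts and 0.709 to 1.93 CPM, and Eno4, with at least 26 counts and 0.601 to 1.15 CPM, were present in all 18. Those 2 were also the only members that passed the filter on low counts in F2 ovary, so edgeR tested 2 of 7 there.

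Ovary RNA held the body-cell isozymes instead. Gapdh was at 1076 to 1666 CPM in F2 ovary and 109.1 to 136.4 in F2 testis, Pgk1 at 197 to 298 and 15.996 to 19.5, and Pdha1 at 67.6 to 94.3 and 7.43 to 10.5. Ldha went the other way, at 313 to 503 CPM in F2 ovary and 795 to 947 in F2 testis. Aldoa was at 694 to 994 CPM in F2 ovary and 332 to 388 in F2 testis, and Eno1 at 368 to 504 and 226 to 276. The median count ratio in F2 ovary was 0.0031 for Ldhc to Ldha and 0.0020 for Eno4 to Eno1; for the other 5 pairs, with members at or near 0 counts, no ratio is given.

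In the 18 F2 ovary libraries no comparison separated the groups for Ldhc. Eno4 or Ldhc was called in 0 of 7 comparisons by edgeR and by DESeq2, with 0 at an unadjusted p under 0.05 by either. EdgeR called 0% or 0.00575% of all genes in these comparisons. It gave an unadjusted p under 0.05 to 13.1%, 6%, 4.97%, 3.82% and 9% of all genes against the control cross (maternal dose 1, maternal dose 2, paternal dose 1, paternal dose 2 and biparental), and to 12.6% and 2.38% between maternal and paternal crosses of dose 1 and dose 2. In the paternal dose 2 cross Eno4 (0.881, 1.07 and 0.888 CPM) lay wholly above the control cross (0.762, 0.842 and 0.847), as 5.74% of all genes did.

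**Figure D4:**
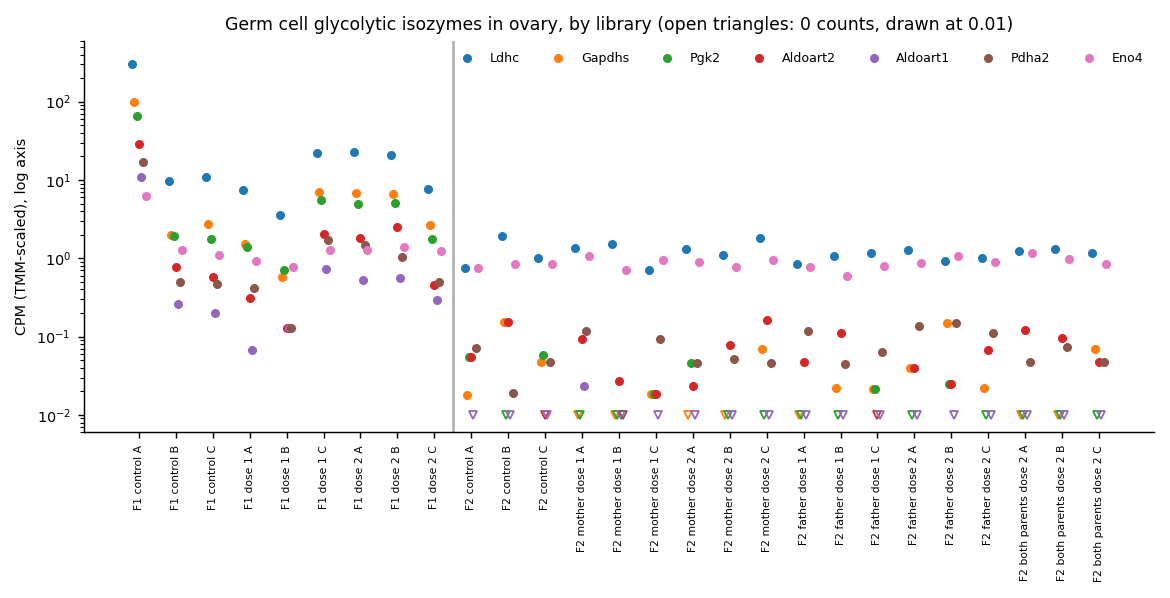
TMM-scaled CPM on a log axis of the 7 isozymes in the 27 ovary libraries; points are libraries, and open triangles drawn at the bottom are libraries with 0 counts. F1 control A stands above all others (Ldhc at 301 CPM). The other F1 libraries overlap F2 for Eno4 (0.783 to 1.41 against 0.601 to 1.15 CPM), Aldoart2 and Pdha2, and in F2 Ldhc and Eno4 are the members with counts in all 18 libraries.

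The F1 ovary control A library held Ldhc at 301 CPM, where control B and C held 9.78 and 10.97. Dose 1 held 7.37, 3.599 and 22.1 CPM, and dose 2 held 22.9, 20.9 and 7.67. Gapdhs was at 97.7 CPM in control A, 1.96 and 2.70 in control B and C, 1.51, 0.572 and 6.95 at dose 1 and 6.90, 6.57 and 2.65 at dose 2. Pgk2 was at 66.1 CPM in control A and 0.699 to 5.56 in the other 8 libraries. Aldoart2 (29.1 against 0.127 to 2.54 CPM), Pdha2 (17.0 against 0.127 to 1.70), Aldoart1 (11.03 against 0.067 to 0.729) and Eno4 (6.16 against 0.783 to 1.41) were highest in control A as well, so all 7 members had their top level in that library.

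Against the mean level in F1 control testis, with CPM from library totals, the 7 members in control A stood at 7.31% (Eno4) to 12.7% (Ldhc), with a median of 9.54%. The 12 elongating spermatid markers had a median of 9.60% there, the 10 round spermatid markers 10.4% and the 12 pachytene markers 9.88%. In the other 8 F1 ovary libraries the members' median was 0.094% to 0.775%, and that of the elongating spermatid markers 0.085% to 0.675%. Prm1, a protamine of elongating spermatids, was at 252 CPM in control A, at most 16.6 in the other 8 and at most 0.201 in F2 ovary. Dose 1 C, dose 2 A and dose 2 B, the 3 libraries with the highest levels after control A of the 6 members other than Eno4, were also the 3 with the highest Prm1, at 14.3, 16.1 and 16.6 CPM. Members and elongating spermatid markers thus stood at like shares of their testis level, library by library, except Eno4, whose share was 0.893% to 1.69% in those 8 libraries and above that of each other member in all of them. The source of these transcripts was not tested.

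**Figure D5:**
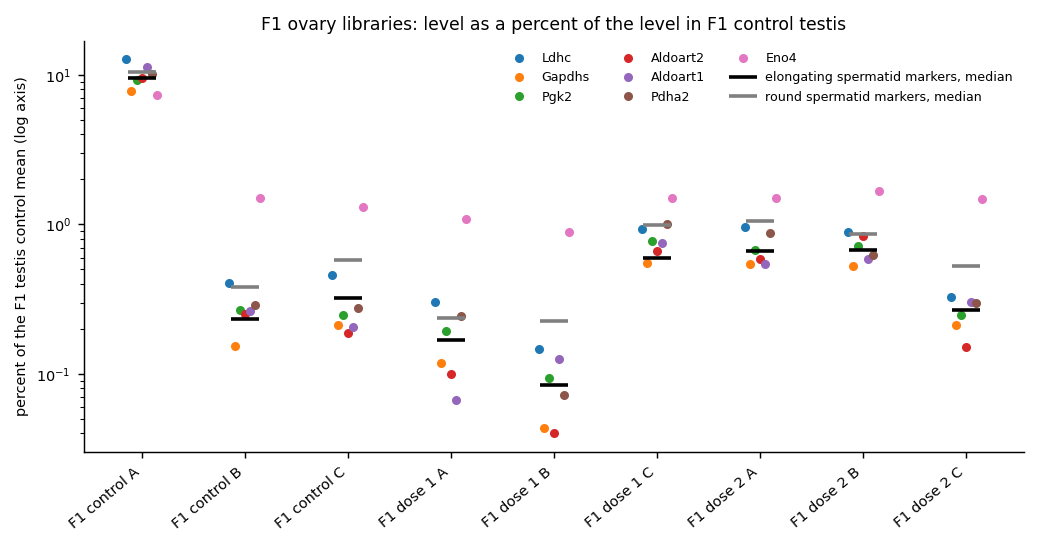
Level of each isozyme in the 9 F1 ovary libraries as a percent of its mean in F1 control testis (log axis); points are genes, and bars are medians of 12 elongating and 10 round spermatid markers. In control A points and bars lie near 10%, and in the other libraries they move together below 1%, apart from Eno4.

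Every member's F1 ovary fold change against the control turned on that library. With all libraries, dose 1 was lower than the control by log2 fold changes of -1.51 (Eno4) to -3.60 (Aldoart1), and dose 2 by -1.12 (Eno4) to -3.04 (Aldoart1). EdgeR called 0 of 7 in either comparison (0% of all genes called), with 4 at an unadjusted p under 0.05 at dose 1 (8.33% of all genes) and 0 at dose 2 (3.75%). The groups of every member overlapped, where 5.54% of all genes were wholly higher and 5.5% wholly lower at dose 1, and 4.12% and 3.79% at dose 2. DESeq2 called 0, with 1 and 0 at an unadjusted p under 0.05, and returned no p for the 6 members other than Eno4. Without control A, the differences at dose 1 were 0.080 (Ldhc) to 0.64 (Pdha2) for 6 members and -0.27 for Eno4, and those at dose 2 were 0.11 (Eno4) to 1.22 (Aldoart2) for 7. The sign thus turned for 6 of 7 members at dose 1 and for 7 of 7 at dose 2. Between the doses, 7 of 7 were higher at dose 2, by 0.38 (Eno4) to 0.93 (Aldoart2), with overlapping groups. EdgeR called 0 of them, with 0 at an unadjusted p under 0.05 (0% of all genes called and 6.02% unadjusted). DESeq2 called 0, with 0 at an unadjusted p under 0.05, but here too gave no adjusted p for the 6 members other than Eno4.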

How the data were processed

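RNA of 27 testis and 27 ovary libraries was sequenced in 100 nt reads from stranded poly(A) libraries, per the labels' protocols. Raw counts per gene were deposited by the authors in 1 table per tissue. For the counting, featureCounts 2.0.3 is listed in the submitters' processing notes, with TopHat2 2.1.1 and Bowtie2 2.4.5 as aligners and mm39 as the build. Which gene annotation and strand setting were used is not given in the sources used here. Columns were matched to samples by name, with 0 left over.

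Counts were fitted with edgeR 4.0.16 (limma 3.58.1, R 4.3.3) in 4 fits, 1 per tissue and generation, each over all its groups. Genes were kept by filterByExpr with a minimum count of 10, scaled by TMM and tested with the quasi-likelihood F-test in 20 comparisons, Benjamini-Hochberg adjusted over 19025 (F1 testis), 19379 (F2 testis), 17896 (F1 ovary) and 17400 (F2 ovary) genes, with a threshold of 0.05. All 7 members passed the filter except in F2 ovary, where 2 did. The SE of a log2 fold change is its size divided by the square root of F. With 3 libraries a group, an exact permutation test of 1 value cannot go below p = 0.1, so none was used. Correlations used log2 CPM with a prior count of 2, and each member was ranked against genes whose F2 testis mean reached 5 CPM, the 3 with the highest r being named. The members are the 7 genes given by name. The members, the gene and marker lists, the tests and the libraries said to stand apart were chosen with earlier results of these data known. The fits were tested on simulated data.

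Over 54 pairs of libraries within groups, chi-square per degree of freedom was at least 7.43, so no library was a copy of another in its group. Libraries of different groups were not compared in this way. Counting error is small in testis and large for the ovary counts near 0, and a count of 0 allows up to 3 counts. Alternatives were DESeq2 1.42.0, other size factors, no filter, narrower and wider fits, a replicate block and each library left out.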

Additional observations from a re-analysis of the deposited data

How the results depend on the processing

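Of 105 log2 fold changes of members that edgeR tested, 0 were called under RLE size factors, no filter, 27 libraries in 1 fit, only the 6 libraries compared or any left-out library, and the lowest adjusted p over these was 0.101. DESeq2 called 1 member in the F2 testis maternal against paternal dose 1 cross (Aldoart2, adjusted p = 0.0347), where edgeR called 0. The cause was not tested. Leaving out 1 library changed the sign of 49 of 630 differences, of which 14 had been larger than their SE. That limit of 1 SE for naming a change of sign was chosen after seeing the data. Without dose 2 B and dose 2 C of F1 testis, dose 2 is a single library, and 8 of 21 signs changed. Against the control Gapdhs was 0.104, Pgk2 0.060, Ldhc 0.110 and Aldoart2 0.050 at dose 2 and Pdha2 0.0067 at dose 1. Between doses Gapdhs was 0.013, Pgk2 0.011 and Ldhc 0.070. The medians of members and of body-cell isozymes under this setting were added after seeing the data. With each library left out, Eno4 between the F1 testis doses ran from -0.0048 (without dose 2 C) to 0.66 (without dose 2 B). In F1 ovary at dose 1 such ranges were -5.03 to 0.37 (Gapdhs), -4.46 to 0.46 (Pgk2), -4.28 to 0.080 (Ldhc), -4.43 to 0.64 (Pdha2), -5.25 to 0.44 (Aldoart1) and -5.51 to 0.30 (Aldoart2), and at dose 2 -3.22 to 1.193 (Gapdhs), -3.13 to 1.06 (Pgk2), -3.17 to 0.72 (Ldhc), -3.11 to 1.05 (Pdha2), -3.60 to 0.99 (Aldoart1), -3.23 to 1.22 (Aldoart2) and -1.50 to 0.11 (Eno4). The high end is the value without control A in each, and the low end at dose 1 is that without dose 1 C. With 5 counts added in place of 0.5, ratios to counterparts moved in 0 of 63 cases over the 9 testis groups; ovary ratios were not among them. The median r of pairs with Eno4 in F2 was 0.28 after subtracting group means, and in F1 -0.61 with library totals. Libraries of the same letter showed no regular likeness across groups: r of same-letter deviations ran from -0.58 to 0.45. In 1 of 20 comparisons every letter exceeded 0.1. Such r cannot tell whether libraries of a letter share a litter or a preparation. With the letter as a replicate block 0 members were called, the lowest adjusted p being 0.0857. Depth limits the F2 ovary values of the 5 members with libraries at 0 counts.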
